A study of Mus musculus with 11 samples.

Results

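The 40 genes described here encode the machinery of DNA replication and mitosis, and they were chosen by name: every row of the series' gene count table whose Entrez gene identifier maps to 1 of 40 listed mouse symbols, out of 27179 rows. All 40 were found, and each was read in at least 1 of the 11 libraries. The libraries came from CD31hi EMCNhi endothelial cells, sorted from the bone marrow of age-matched BALB/c mice. In 2 control libraries (controls) the mice carried no tumour. In the burdened groups the mice carried 4T1.2 cells, a BALB/c mammary cancer line that spreads to bone and was marked here with red fluorescent protein, and marrow was cut by that fluorescence into tumour-infiltrated areas (met, 3 libraries) and neighbouring tumour-free areas (non-met, 6 libraries). No further treatment was labelled for any group, and the route by which tumour cells were given to these particular mice is not given in the sources used here. Each burdened library came from a pool of 1 to 4 mice, and the 9 burdened libraries share 4 pools. The controls were pools as well, of a size not given in the sources used here. Non-met 1 and 5 belong to pool 1. Pool 2 holds 3 libraries (non-met 2, non-met 6, met 1), pool 3 the pair of non-met 3 with met 2, and pool 4 that of non-met 4 with met 3. Libraries of 1 pool are therefore not separate animals, and P values measure the spread between libraries.

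A dividing cell first loads the MCM helicase onto its DNA, then makes nucleotides and copies the genome in S phase under cyclin E and cyclin A. It then divides under cyclin B and CDK1, with Aurora and Polo kinases building the spindle and the anaphase-promoting complex ending mitosis. Most of these transcripts are made mainly in cycling cells, so in a resting endothelium few cells hold them. In healthy bone, high CD31 and endomucin (EMCN) mark the type H capillaries near the growth plate, where bone grows and vessels extend with it.

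Gene counts summed to between 733342 (non-met 4) and 19539761 (control 1) per library, and levels are given below as CPM, the reads of a gene scaled to a common total of the counts kept. A count of 0 allows a level of up to 0.157 CPM in control 1, 0.614 CPM in control 2 and 4.76 CPM in non-met 4, taking 3 reads as its limit, and these limits cover counting error only. The endothelial list (Pecam1, Emcn, Cdh5, Kdr and 6 others) summed to 8386 to 13270 CPM in the 11 libraries. It was the highest of the cell type lists in all but control 2, where the list of osteolineage, stromal and perivascular cells (11 genes, Bglap at 0 throughout) summed to 13200 CPM, above the 8386 CPM of the endothelial list, with 10090 CPM of it in Cxcl12. That stromal list summed to 4478 CPM in control 1, 1343 to 4269 CPM in non-met and 532 to 3035 CPM in met. Other lists moved between libraries as well: the granulocyte list ran from 36.4 CPM in met 3 to 5444 CPM in non-met 6, and 4 keratins of simple epithelia (Krt7, Krt8, Krt18 and Krt19) ran from 1.04 CPM in control 1 to 95.7 CPM in non-met 6.

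Levels of the cell cycle genes were low and scattered. Per kilobase of gene, the highest mean levels over the 11 libraries were those of Tubb5 (53.2 CPM per kb), a tubulin that resting cells also use, Ccnd1 (38.2), cyclin D1, which acts before replication, and Pcna (28.1), the sliding clamp of DNA polymerases. Mki67, the antigen most used to count dividing cells, had 13.1 CPM per kb and Top2a, the topoisomerase that untangles chromosomes, 10.2. Only Ccnd1, Mki67 and Tubb5 had more than 3 reads in every library, 3 of the 40. Among the 36 that passed the filter on low counts, these 3 were 8.33%, against 20% of the 11950 genes tested. In bulk libraries such as these, fewer cycling cells and less RNA per cycling cell cannot be told apart.

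**Figure D1:**
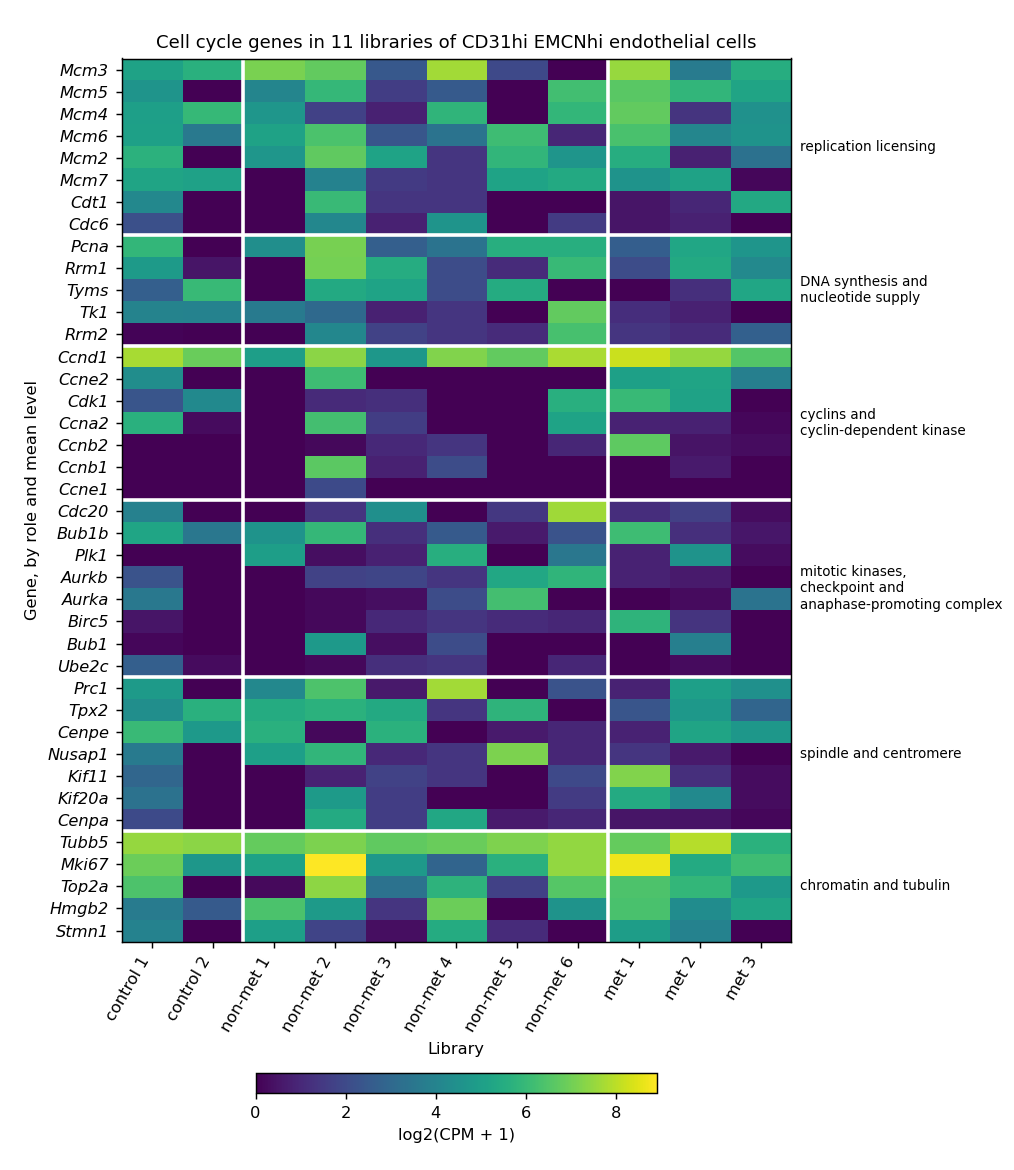
Heat map of the level of each of the 40 cell cycle genes (rows, grouped by role and ordered by mean level) in each of the 11 libraries (columns), as log2(CPM + 1) from 0 (dark) to the highest value (yellow). White lines part the roles and the control, non-met and met groups. Ccnd1, Tubb5 and Mki67 carry signal in every column, and the other rows have more than 3 reads in 1 to 10 columns.

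The promoters of these genes share short motifs that the selection did not use. RefSeq promoter windows (GRCm38.p6, 250 bases before to 50 after a start) were at hand for 32 of the 40 genes, 34 windows in all. CCAAT on either strand, the box bound by NF-Y, was found in 27 of the 34 (79.4%), against 37.4% of all 32851 windows. TTTGAA or TTTAAA on either strand, the core of the element through which many mitotic genes are held silent in resting cells, was found in 22 (64.7%, against 27.6%). The E2F site, searched as TTGGCGC, as the variant TTCCCGC and as the further variant TTCGCGC on either strand, was found in 12 (35.3%, against 8.07%). By role, the E2F letters were in 7 of 8 windows of licensing genes, 1 of 5 of DNA synthesis, 2 of 4 of the cyclins, 2 of 4 of chromatin and tubulin, and 0 of 13 of the mitotic kinase and spindle groups. The TTTGAA or TTTAAA letters were in 2 of 8, 2 of 5, 4 of 4, 3 of 4 and 11 of 13 windows of the same groups. These counts are a description, and the differences between roles were not tested. The 150 bases upstream of 5 genes on which the results below turn are given 5′ to 3′ on the gene's strand, with every match to these letters in capitals. TTGGCGC read on the other strand shares 4 letters with CCAAT, so both can mark the same bases, as they do in Ccnb1.
Ccnb1 (chr13:100786487-100786636, minus strand): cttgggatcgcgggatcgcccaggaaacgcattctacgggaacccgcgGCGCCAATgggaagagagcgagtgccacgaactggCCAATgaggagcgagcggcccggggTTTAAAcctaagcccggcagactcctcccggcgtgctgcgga
Ccnb2 (chr9:70421555-70421704, minus strand): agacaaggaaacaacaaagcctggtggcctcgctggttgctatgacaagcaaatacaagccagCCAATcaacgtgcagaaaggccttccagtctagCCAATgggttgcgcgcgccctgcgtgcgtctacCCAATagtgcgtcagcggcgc
Mcm3 (chr1:20820313-20820462, minus strand): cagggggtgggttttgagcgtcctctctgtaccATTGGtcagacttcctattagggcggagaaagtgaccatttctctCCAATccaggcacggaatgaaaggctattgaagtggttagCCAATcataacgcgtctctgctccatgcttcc
Mcm5 (chr8:75109359-75109508, plus strand): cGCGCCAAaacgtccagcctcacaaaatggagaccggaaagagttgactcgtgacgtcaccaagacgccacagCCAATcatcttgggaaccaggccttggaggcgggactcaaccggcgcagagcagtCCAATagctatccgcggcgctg
Pcna (chr2:132253181-132253330, minus strand): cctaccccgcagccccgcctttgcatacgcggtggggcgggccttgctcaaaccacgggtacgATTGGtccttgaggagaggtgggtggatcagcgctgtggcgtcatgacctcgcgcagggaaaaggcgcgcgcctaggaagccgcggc
The 2 mitotic cyclins, Ccnb1 and Ccnb2, carry CCAAT 2 and 3 times in these bases, and each took nearly all its reads from a different library, as described below. Such matches are letters in a window and say nothing of binding in these cells.

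The replication licensing genes (Cdc6, Cdt1 and Mcm2 to Mcm7, 8 in all) mark origins and form the helicase. They summed to 230.4 and 156 CPM in the controls, 50.6 to 456 CPM in non-met, and 542, 125 and 177 CPM in met 1, 2 and 3, so the groups overlapped. Mcm3, a helicase subunit and the licensing gene with the highest level per length, had 34.3 and 49.5 CPM in the controls, a lowest, median and highest non-met value of 0, 56.4 and 205 CPM, and 185, 12 and 46.4 CPM in met. Its non-met values alone span its levels in all the other libraries. Mcm5, another subunit, had 23.5 CPM in control 1 and 0 in control 2, non-met values of 0, 10.3 and 72.7 CPM, and 99.6, 58.2 and 35.9 CPM in the met libraries. All 3 met values of Mcm5 lie above both controls, and 2 of the 6 non-met values reach into their range. Mcm2 had 52.3 CPM in control 1 and 0 in control 2, non-met values of 1.59, 29.8 and 107 CPM, and 45.9, 0.753 and 8.92 CPM in the met libraries. Mcm7 had 35.9 and 33.8 CPM in the controls, non-met values of 0, 8.12 and 42.1 CPM, and 23.2, 34.3 and 0.117 CPM in the met libraries. Although MCM2 to MCM7 are subunits of 1 ring, their transcripts did not keep step: met 3 held 306 reads of Mcm5 and 1 read of Mcm7, and non-met 6 held 76 reads of Mcm5 and 0 of Mcm3. The Mcm7 gene overlaps Ap4m1 and a microRNA cluster, and Tk1, Ccnd1, Ccne2, Ccna2, Aurka, Cdc20, Kif20a, Nusap1 and Prc1 also overlap a neighbouring protein-coding gene. How reads in shared bases were counted is not given in the sources used here, so the values of these 10 genes may hold reads of a neighbour or lack some of their own. Mcm4 and Mcm6, further subunits, were highest in met 1 (107 CPM) and non-met 2 (82.8 CPM) and lowest at 0 in non-met 5 and 0.957 CPM in non-met 6. Cdt1 and Cdc6, the loaders of the ring, had more than 3 reads in 5 and 4 libraries and reached 64.3 CPM (non-met 2) and 23.8 CPM (non-met 4).

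The genes of DNA synthesis and nucleotide supply (Pcna, Rrm1, Rrm2, Tyms and Tk1) summed to 107 and 78.2 CPM in the controls, 19.0 to 333 CPM in non-met and 11.4, 82.8 and 84.8 CPM in met. Pcna had 58.6 CPM in control 1 and 0 in control 2, non-met values of 5.48, 33.4 and 134 CPM, and 5.29, 37.8 and 24.1 CPM in met. Tk1, thymidine kinase, had 15 and 14.5 CPM in the controls, non-met values of 0, 4.43 and 109 CPM, and 1.22, 0.753 and 0 CPM in met. The met libraries held 3, 4 and 0 reads of Tk1, below both controls. Tyms, thymidylate synthase, had 5.43 and 63.2 CPM in the controls, non-met values of 0, 18.9 and 43.5 CPM, and 0, 1.32 and 37.8 CPM in met. Rrm1 and Rrm2 form 1 enzyme, ribonucleotide reductase, yet control 1 held 539 reads of Rrm1 and 1 of Rrm2. Their highest levels also lay apart, 133 CPM of Rrm1 in non-met 2 and 78.5 CPM of Rrm2 in non-met 6. Pcna and Tyms have named processed copies in the genome, with which reads could be shared.

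The cyclins and CDK1 (7 genes) held the sharpest contrasts between libraries. Ccnd1 was the steadiest, with 213 and 117 CPM in the controls, non-met values of 25.3, 130 and 218 CPM, and 294, 181 and 92.3 CPM in met. Ccne2, cyclin E2, which starts S phase, had 19.7 CPM in control 1, 0 in control 2, and 32.9, 36.3 and 13.3 CPM in met. In non-met it had 69.9 CPM in non-met 2 and 0 reads in each of the other 5 libraries. Ccne2 thus had reads in all 3 met libraries and 1 of 6 non-met libraries. Its paralogue Ccne1, cyclin E1, had 22 reads in non-met 2 (2.96 CPM) and 0 in the other 10 libraries. Ccnb1 had 756 reads in non-met 2 (102 CPM) and at most 3 in any other library. Ccnb2 had 254 reads in met 1 (103 CPM) and at most 4 in any other library. Non-met 2 and met 1 come from the same mouse pool, and each of them held 1 B cyclin without the other: non-met 2 had 1 read of Ccnb2, and met 1 had 0 of Ccnb1. Cdk1, the kinase that both cyclins drive, had 4.07 and 17.8 CPM in the controls, non-met values of 0, 0.539 and 48.8 CPM, and 63.4, 34.4 and 0 CPM in met. In non-met 2, with its 756 reads of Ccnb1, Cdk1 had 8 reads. Ccna2, cyclin A2, had 49.9 CPM in control 1 and 0.205 CPM in control 2, was highest in non-met 2 at 74.6 CPM, and stayed at or below 0.813 CPM in met.

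The mitotic kinases, checkpoint and anaphase-promoting genes (8) summed to 71.6 and 10.9 CPM in the controls, 28.4 to 274 CPM in non-met and 127, 42.4 and 10.5 CPM in met. Cdc20, which activates the anaphase-promoting complex, had 14.2 CPM in control 1, 0 in control 2, non-met values of 0, 1.68 and 202 CPM, and 1.22, 2.26 and 0.235 CPM in met. Non-met 6 alone held 82.7% of its summed CPM over all libraries. Aurkb, a kinase of chromosome attachment, had 3.86 CPM and 0 in the controls, non-met values of 0, 2.52 and 55.5 CPM, and 0.813, 0.565 and 0 CPM in met. Plk1, a Polo kinase that drives entry into mitosis, had 0 reads in both controls, non-met values of 0, 5.65 and 47.6 CPM, and 0.813, 23 and 0.235 CPM in met. Birc5, survivin, had 134 reads in met 1 (54.5 CPM) and at most 8 elsewhere. Ube2c, the ubiquitin-conjugating enzyme of the same complex as Cdc20, had 104 reads in control 1 and at most 5 elsewhere. Aurka, the kinase of the spindle poles, was highest in non-met 5 (76.0 CPM), and the checkpoint kinases Bub1 and Bub1b in non-met 2 (27.2 CPM) and met 1 (69.5 CPM). No 1 library was thus the highest for all 8 genes of this group.

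The spindle and centromere genes (7) summed to 144 and 77.0 CPM in the controls, 11.5 to 266 CPM in non-met and 199, 114 and 53.8 CPM in met. Prc1, which bundles the central spindle, had 27.8 CPM in control 1, 0 in control 2, non-met values of 0, 10.4 and 205 CPM, and 0.813, 31.6 and 21.1 CPM in met. Cenpe, a kinetochore motor, had 65.1 and 26.8 CPM in the controls, non-met values of 0, 0.769 and 50.3 CPM, and 0.813, 35.8 and 25.6 CPM in met. Its non-met libraries were split into 2 with 278 and 193 reads and 4 with at most 1 read. Nusap1, a spindle microtubule binder, had 11.7 CPM and 0 in the controls, non-met values of 0.957, 16.6 and 141 CPM, and 1.63, 0.565 and 0 CPM in met. Kif11, the motor that pushes spindle poles apart, had 365 reads in met 1 (148 CPM), 129 in control 1 and at most 9 elsewhere. Cenpa, the histone of centromeres, had more than 20 reads in control 1, non-met 2 and non-met 4 alone. Kif20a, a motor of the dividing cell's midzone, was highest in met 1 (42.7 CPM), and Tpx2, an activator of Aurora A, in non-met 5 (54.5 CPM).

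The chromatin and tubulin genes (Mki67, Top2a, Hmgb2, Stmn1 and Tubb5) gave the largest sums, 412 and 195 CPM in the controls, 145 to 826 CPM in non-met and 720, 376 and 184 CPM in met. Mki67 had 121 and 25.2 CPM in the controls, non-met values of 6.34, 41.6 and 483 CPM, and 414, 42.3 and 70.6 CPM in met. Its means were 73.1 ± 67.7 CPM (SD, n = 2) in control, 130 ± 184 CPM (n = 6) in non-met and 176 ± 207 CPM (n = 3) in met, and each of these SDs is about as large as its mean or larger. Without non-met 2 the non-met mean of Mki67 is 58.9 CPM, and without met 1 the met mean is 56.5 CPM. Top2a had 84.6 CPM in control 1 and 0 in control 2, non-met values of 0.177, 31.6 and 170.0 CPM, and 84.2, 58.3 and 26.7 CPM in met. Its group means were 42.3 ± 59.8, 54.8 ± 67.1 and 56.4 ± 28.8 CPM (SD, n = 2, 6 and 3). Hmgb2, a chromatin protein of dividing cells, and Stmn1, which breaks down microtubules, were both highest in non-met 4, at 119 and 44.4 CPM. Tubb5 varied least of the 40, with 180.3 and 165 CPM in the controls, non-met values of 107, 129 and 176 CPM, and 111, 241 and 50.4 CPM in met. The coefficient of variation over the 11 libraries was 35.8% for Tubb5, 56.1% for Ccnd1, 125% for Mki67 and 332% for Ccne1. Over the 36 genes tested its median was 138%, against 115% over all genes tested.

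**Figure D2:**
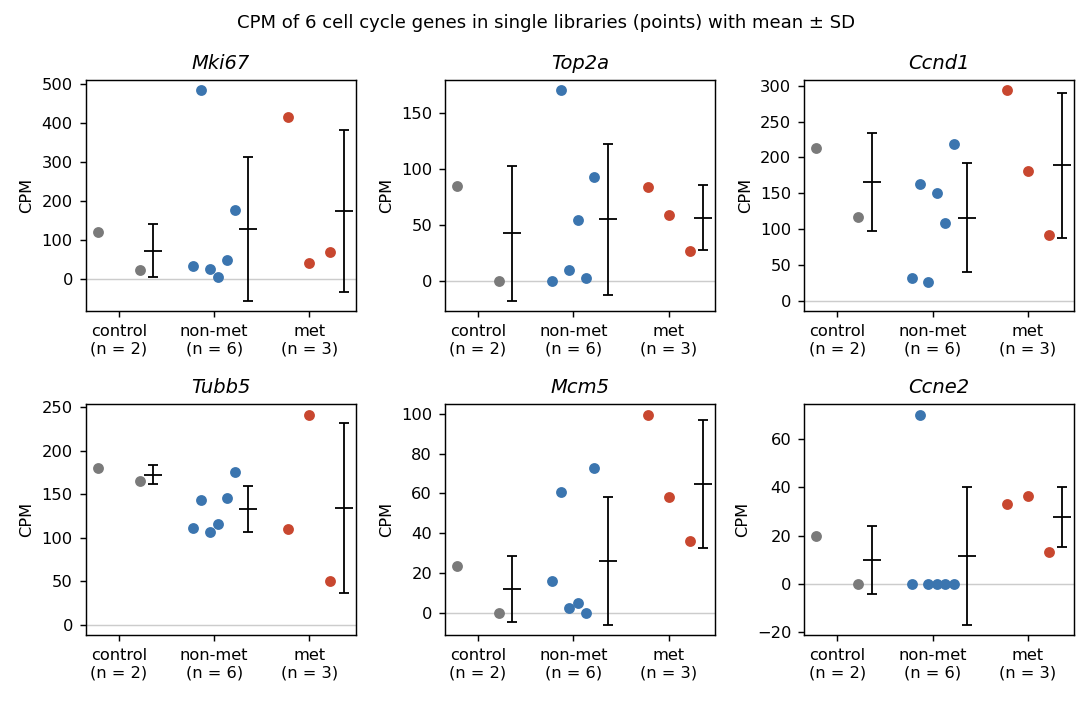
Level of 6 cell cycle genes in CPM (linear axes), with 1 point per library and, to the right of each group, the mean with 1 SD (n = 2 control, 6 non-met and 3 met). The highest Mki67 points are non-met 2 at 483 CPM and met 1 at 414 CPM, the Ccne2 points of 5 non-met libraries lie at 0, and Tubb5 and Ccnd1 lie above 0 throughout.

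Single libraries carried much of the signal of single genes. For 15 of the 40 genes, 1 library held more than 50% of the CPM summed over all 11, and the median gene had 41.2% in its top library. Among the 36 genes tested the share over 50% was 30.6% of genes with a median of 38.3%, against 23.1% and 30.9% over all genes tested. The extremes were Ccne1 (100% in non-met 2), Ccnb2 (96% in met 1), Ccnb1 (95.8% in non-met 2), Kif11 (90.3% in met 1) and Birc5 (88.9% in met 1). Among the 36 genes with any control read, not the same set as the 36 tested, the median gene had 100% of its control CPM in 1 of the 2 libraries. Of all genes tested, 27.9% had 0 reads in control 2 and 9.52% in control 1.

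Detection differed widely between libraries of 1 group. More than 3 reads were found for 34 of the 40 genes in control 1 and for 14 in control 2, and 17 genes had more than 3 reads in control 1 and 0 in control 2, while 0 genes had the reverse. That share was 42.5% of the cell cycle genes and, over both directions, 23.3% of all genes tested. Among the burdened libraries the count was 34 in non-met 2, 32 in met 2, 29 in non-met 3, 24 in met 1, and 14 to 21 in the other 5. With all libraries scaled to the depth of the shallowest, control 1 kept 29 genes and control 2 13, non-met 2 kept 27, and non-met 3 had 11, so that the gap was the same in both groups. The 2 non-met libraries of pool 1 differed as well: 10 of the 40 genes had more than 3 reads in 1 of them and 0 in the other (25%, against 26.8% of genes tested), and for the 2 of pool 2 it was 9 genes (22.5%, against 21.1%). In libraries of the same mice and the same tissue area, the share of cell cycle genes present in only 1 library was thus near that of genes at large.

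A second pattern lay in counts too small to weigh in CPM. In non-met 3, 25 of the 40 genes had 1 to 12 reads, as did 22 in non-met 4 and 19 in met 2, whereas control 1, control 2 and non-met 1 had 3, 3 and 1 such genes (the bounds of this class were chosen after its values were seen). These are 62.5%, 55% and 47.5% of the cell cycle genes, beside 24.4%, 31.3% and 16.9% of the genes tested in the same libraries. The share was above that of genes tested in other libraries too: 7.5% beside 1.46% in control 1, 7.5% beside 2.49% in control 2, 22.5% beside 9.62% in non-met 2 and 22.5% beside 6.15% in met 3, with keratin sums of 1.04, 1.84, 4.85 and 10.7 CPM. Non-met 1 was the exception, with 2.5% beside 2.78%. The keratin sums in non-met 3, non-met 4 and met 2 were 75.4, 58.7 and 71.3 CPM, and in the 2 controls and non-met 1 they were 1.04, 1.84 and 1.42 CPM. The match was not complete: non-met 6, with the highest keratin sum (95.7 CPM), had 13 such genes (32.5%, beside 18.2% of genes tested). The whole list of mammary tumour epithelium (14 genes, with Krt5 at 0 in all libraries) summed to 18.6 to 71.9 CPM in control, 24.1 to 191 CPM in non-met and 33.1 to 146 CPM in met. It was 86.3, 85.6 and 80.6 CPM in the 3 libraries rich in small counts, little above the 71.9 CPM of control 2, and its part in the small counts was not tested.

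**Figure D3:**
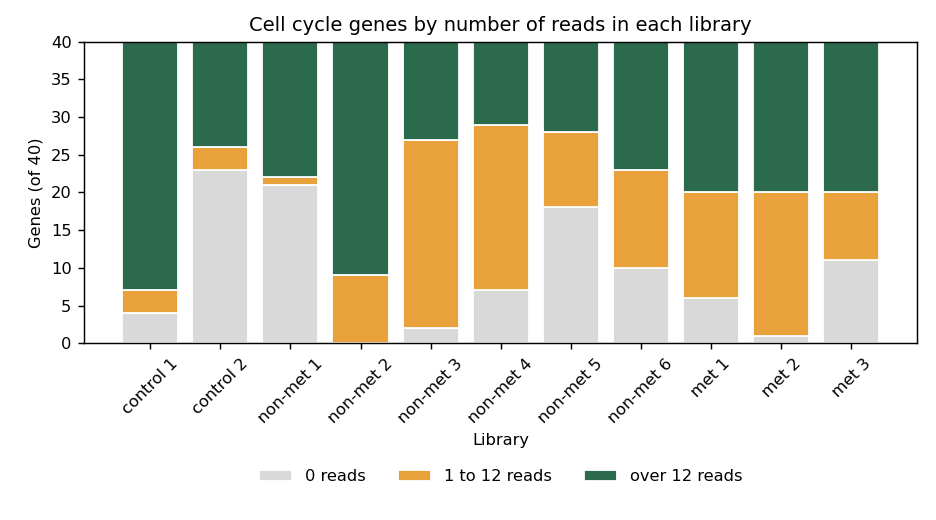
Number of the 40 cell cycle genes with 0 reads (grey), 1 to 12 reads (orange) and over 12 reads (green) in each library, stacked to 40. Control 2 and non-met 1 have 23 and 21 genes at 0 and few in the middle class, while non-met 3 and non-met 4 have 25 and 22 genes in the middle class.

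Summed over all 40 genes, the 3 highest libraries came from 1 mouse pool. The sums were 1253 and 652 CPM in the controls, 756, 2386, 443, 1129, 882.5 and 1557 CPM in non-met 1 to 6, and 2093, 992 and 616 CPM in met 1 to 3. Non-met 2, met 1 and non-met 6, the 3 highest, are the 3 libraries of burdened pool 2. They also held the top value of 27 of the 40 genes (67.5%), against 32.6% of all genes tested. The order of these 3 did not rest on Mki67: without it their sums were 1903, 1680 and 1379 CPM and still the highest. On the mean of log2 CPM, which weighs all genes alike, the order differed: non-met 2 was again the highest (4.14), followed by control 1 (3.35), met 1 (3.13), met 2 (2.62) and non-met 6 (2.53), with control 2 last (0.752). The B cell list summed to 160 CPM in non-met 2 and 89.5 CPM in met 1, its 2 highest values, but to 0 in non-met 6. The 89.5 CPM of met 1 were those of Cd79a alone, and the cells had been gated against CD45 and Ter-119, markers of blood cells. The list held 8 genes, with Ms4a1 and Igll1 at 0 in all libraries, and ranged over 13 to 19.7 CPM in control, 0 to 160 in non-met and 0 to 89.5 in met. The monocyte and macrophage list (8 genes, with Ccr2, C1qa and C1qb at 0 in all libraries) was highest in non-met 2 (467 CPM) and next in non-met 6 (323 CPM), but 43.9 CPM in met 1, with 38.3 to 80.9 CPM in control, 13.3 to 467 in non-met and 43.9 to 52.8 in met. The megakaryocyte and platelet list (6 genes, with Gp9 at 0 in all libraries) was highest in met 1 (114 CPM) and next in non-met 6 (62.2 CPM), with 0 to 36.2 CPM in control, 0 to 62.2 in non-met and 42.4 to 114 in met. The part of these lists in the sums of the cell cycle genes was not tested. The list of cycling granulocyte and myeloid progenitors (Mpo, Elane, Prtn3, Ctsg, Ms4a3 and Myb) summed to 66.3 to 84.5 CPM in control and 68.2 to 234 CPM in non-met, and to 0, 0.188 and 0.117 CPM in met.

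**Figure D4:**
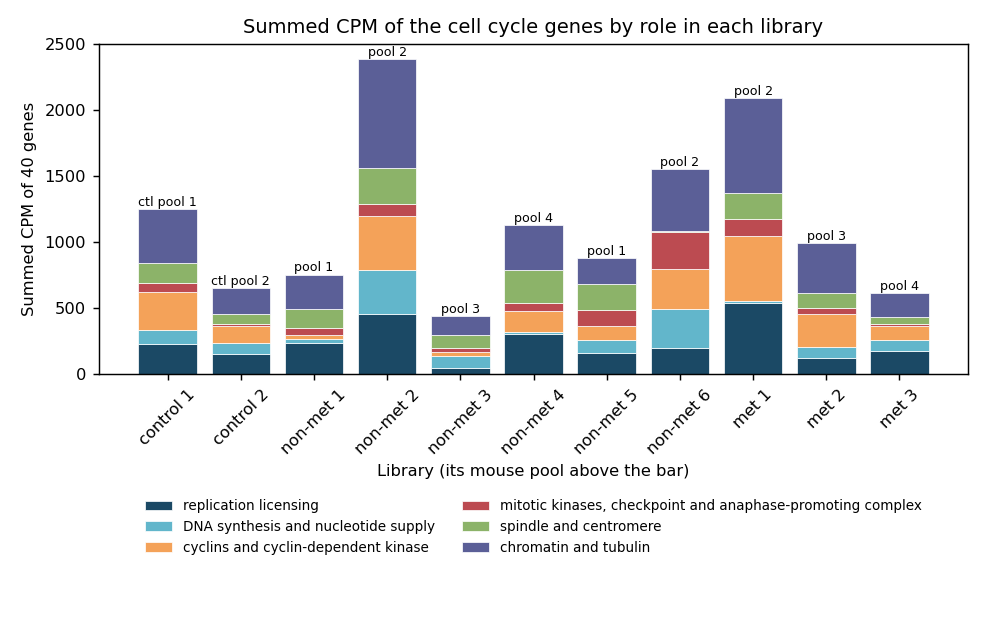
Summed CPM of the 40 cell cycle genes in each library, stacked by role, with the mouse pool above each bar (bars start at 0). The 3 libraries of burdened pool 2 are the highest at 2386, 2093 and 1557 CPM, and the roles make up different shares from library to library.

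The comparison of met with non-met asks whether endothelium inside the metastases differs from its neighbours in the same bones. No cell cycle gene passed the test: 0 of the 36 tested had an adjusted P under 0.05 (voomLmFit with sample weights and Benjamini-Hochberg adjustment), beside 0.427% of all 11950 genes tested. At an unadjusted P under 0.05 there was 1 gene, Ccne2, beside 7.24% of genes tested, and the count past the adjusted threshold was also 0 with edgeR's quasi-likelihood test (0.142% of genes tested), DESeq2 (2.73%) and limma-trend (0.0167%). The genes lay on both sides of 0, with 17 of 36 above it and a median log2 fold change of −0.12, beside 0.07 over all genes tested. The mean sums were 1234 ± 768 CPM in met (SD, n = 3) and 1192 ± 694 CPM in non-met (n = 6), a difference well inside either SD and opposite in sign to the median. Without met 1 the met mean was 804 ± 266 CPM (n = 2), and without non-met 2 the non-met mean was 953 ± 418 CPM (n = 5). Ccnb2, Birc5, Ube2c and Ccne1 did not pass the filter on low counts.

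The highest value in the fit was that of Ccne2, 5.25 on the log2 scale with an SE of 1.74 and an adjusted P of 0.383. Its exact two-sided permutation P was 0.0476, where 84 splits allow no P below 0.0119. Without non-met 2, the 1 non-met library with reads, the value was 6.02, the highest of 28 alternatives, of which the lowest was 1.13. Cenpe (log2 fold change 2.51, SE 2.12) and Mcm5 (2.30, SE 1.48) followed with adjusted P of 0.816 and 0.754. With 1 library left out, Cenpe ran from 0.48 (without met 2) to 3.76 (without met 1). The lowest values were those of Aurkb (−3.63, SE 2.22), Nusap1 (−3.54, SE 2.23) and Tk1 (−3.46, SE 2.19), all with an adjusted P of 0.75. Mki67 lay at 0.01 (SE 1.14) and Top2a at 1.16 (SE 1.59), with adjusted P of 0.999 and 0.905, and 11 of 28 alternatives put Mki67 below 0. By role, the mitotic kinase group had all of its 6 tested genes below 0 (median −1.16), and the licensing group had 6 of 8 above 0 (median 0.56). For none of the 40 genes did the met and non-met libraries fail to overlap, as they did for 1.98% of genes tested.

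Within the 3 pools that gave both areas, the direction of the sum varied. In pool 2 the met library had 2093 CPM and its non-met libraries a mean of 1972 CPM, in pool 3 the values were 992 and 443 CPM, and in pool 4 they were 616 and 1129 CPM. Of the 40 genes, 15, 20 and 16 were higher in met in the 3 pools (37.5%, 50% and 40%, against 34.4%, 49% and 54.4% of genes tested). Mcm5, Mcm6, Kif20a and Mki67 were higher in met in all 3 pools, 4 of 40 (10%, against 10.7% of genes tested). For Kif20a in pool 4 this rests on 2 reads in met 3 and 0 in non-met 4, where a count of 0 allows 4.76 CPM, so it is not shown to be higher there. In pool 2 the direction is that against the mean of its non-met libraries. There non-met 2 alone lay above met 1 for Mki67 (483 against 414 CPM) and Mcm6 (82.8 against 80.5 CPM). Cdc6, Tk1, Ccnb1, Aurkb, Ube2c, Cenpa and Nusap1 were lower in met in all 3, 7 of 40 (17.5%, against 8.41%). These directions rest on few reads: none of the 7 had more than 4 reads in any met library, and Cenpa alone had more than 3 non-met reads in each of the 3 pools. The differences for Tk1 were −56.96, −0.03 and −1.59 CPM. The other 6 are therefore not shown to be lower in every pool, and nothing is read from the share.

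The comparisons with control ask how either area differs from endothelium of tumour-free mice, and both share the same 2 controls. Met against control called 0 of the 36 genes (1.2% of all genes tested), and non-met against control called 0 of 36 (0.636%). At an unadjusted P under 0.05 there were 4 genes in the first (14.1% of genes tested) and 8 in the second (17%), and the 3 other tests called 0 in each. Over all genes tested these called 0.0837% and 0.117% (edgeR's quasi-likelihood test), 2.03% in either (DESeq2), and 0.0753% and 0.0669% (limma-trend). The smallest adjusted P was 0.0941, for Mcm5 in met against control, and 0.151, for Pcna in non-met against control. Of the 36 genes 24 lay above 0 in either comparison, where 48% and 44.1% of genes tested did. The median log2 fold change was 1.47 in met against control, beside −0.09 over all genes tested, and 2.66 in non-met against control, beside −0.33. With genes absent from both controls set to the bound that 3 reads per library allow, or left out where no bound could be given, these medians were 1.31 and 2.66. In the first, Plk1 was set to its bound and Ccnb1 was left out. The met mean of Ccnb1, 0.188 CPM, lay below the 0.712 CPM that 3 reads in each met library would give on average. In the second, 2 genes were set to their bounds and 0 were left out. By role the highest medians were those of DNA synthesis in met (4.04) and of the mitotic kinases in non-met (3.97), and the lowest were those of the cyclins (−0.20) and of licensing (1.01).

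These medians rest on which control is in the fit. Without control 2, with 40 cell cycle genes tested, they turned to −0.86 and −1.23, beside −0.48 and −0.94 over all genes tested in that fit. Without control 1, with 39 tested, they were 2.70 and 3.69, beside 0.32 and 0.20. Without met 3 the median in met against control was 2.31. The fit gave control 2 a sample weight of 1.69 and control 1 one of 0.43, and without weights the medians were −0.02 and 0.43. Control 2 had 0 reads of 23 genes, 19 of which had reads in control 1, among them Top2a (1621 reads), Pcna (1123) and Mcm2 (1002). Control 2 was also the library with the stromal list at 13200 CPM, against 4478 CPM in control 1 and 532 to 4269 CPM in the burdened libraries, and the part of those cells in the medians was not tested. Summed CPM was 952 ± 425 CPM in control (n = 2), so that both burdened groups lay within 1 SD of it on that scale.

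**Figure D5:**
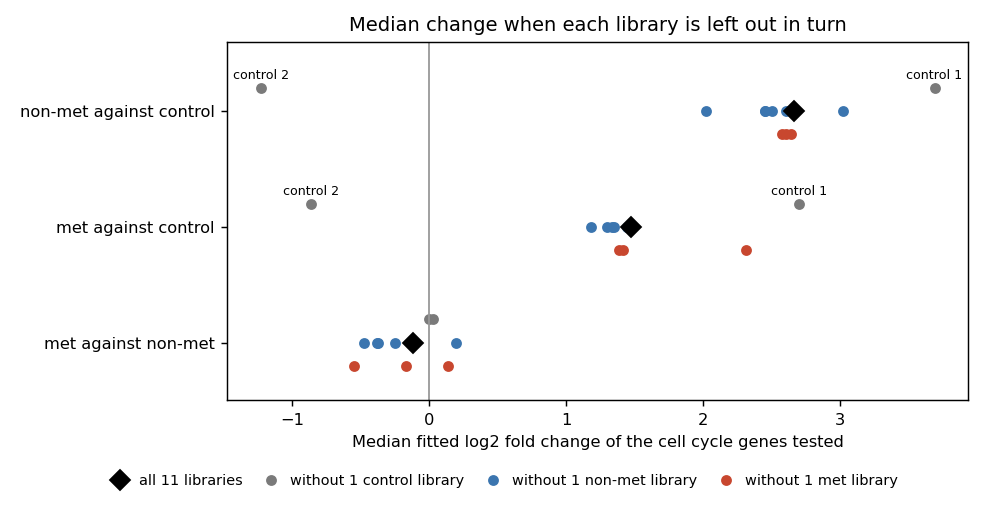
Median fitted log2 fold change of the cell cycle genes tested in each comparison, with all 11 libraries (black diamond) and with each library left out in turn (points coloured by the group of the library left out). Without control 2 the medians against control turn from 1.47 and 2.66 to −0.86 and −1.23, whereas leaving out any burdened library keeps them above 0.

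In met against control, Mcm5 had the highest value, 7.71 on the log2 scale (SE 2.31), and its libraries did not overlap (exact permutation P = 0.1, the smallest that 10 splits allow). Without control 2 the value of Mcm5 was 1.24. Top2a (7.13, SE 2.64) and Ccne2 (6.66, SE 2.50) came next, with adjusted P of 0.179 and 0.185, and both had 0 reads in control 2. Without control 2, Top2a turned to −0.83 and Ccne2 to 0.39. The lowest values were those of Tk1 (−4.66, SE 2.44, adjusted P = 0.406), Tyms (−3.14, SE 2.46) and Mcm7 (−2.47, SE 2.24). With 1 library left out, Tyms ran from −5.23 (without met 3) to −1.36 (without met 1). Without met 3, the library with 1 read of Mcm7, the value of Mcm7 was −0.10. Besides Mcm5, the libraries of Tk1 (below both controls), Rrm2, Plk1, Hmgb2 and Ccnb2 (above both) did not overlap, 6 of 40 beside 20.7% of genes tested. For Plk1 in met 3 (0.235 CPM) and Ccnb2 in met 2 and 3 (0.376 and 0.235 CPM) this rests on 2 reads each, below the 0.614 CPM that a count of 0 allows in control 2, so they are not shown to lie above it. Plk1 and Ccnb2 had no control reads, and their met means, 8.0 ± 13 and 34.6 ± 59.5 CPM (SD, n = 3), were at least 20.8-fold and 89.9-fold higher than 3 reads in each control would give, each through 1 met library.

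In non-met against control the highest log2 fold changes were those of Pcna (6.62, SE 2.31), Plk1 (6.47, SE 2.48, adjusted P = 0.195) and Mcm2 (6.38, SE 2.43, adjusted P = 0.19). Pcna and Mcm2 had 0 reads in control 2 and more than 50 CPM in control 1, and without control 2 they turned to −0.97 and −1.01. Plk1, absent from both controls, averaged 15 ± 19.9 CPM in non-met (SD, n = 6), at least 38.9-fold above the level of 3 reads in each control. That mean rests on non-met 1, 4 and 6, with 174, 30 and 11 reads, while non-met 2, 3 and 5 held 2, 3 and 0. The bound covers counting error only. The lowest were those of Cenpe (−4.07, SE 1.65, adjusted P = 0.216), Mcm7 (−2.50, SE 1.70) and Cdk1 (−2.21, SE 2.31). With 1 library left out, Cdk1 ran from −3.81 (without non-met 6) to −0.94 (without control 2). Over 26 alternatives Mcm7 ran from −5.24 to −0.90 and Cdk1 from −4.96 to −0.17. Mki67 gave 0.53 (SE 1.33) in met and 0.52 (SE 1.47) in non-met, and both turned below 0 without control 2 (−0.58 and −0.65), the second also without non-met 2 (−0.61). None of the 40 genes had non-overlapping libraries in non-met against control, where 6.29% of genes tested did.

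Of 88 further genes of the cell cycle, listed by role, 81 were tested. In met against non-met and in met against control 0 were called (0.427% and 1.2% of all genes tested), and in non-met against control 1 was called (0.636%), E2f6, a repressor of the E2F family. E2f6 had 800 and 380 reads in the controls (41.8 and 77.8 CPM), 0 to 3 reads in the non-met libraries, and 1, 3 and 203 reads in met 1, 2 and 3. Non-met against control gave E2f6 a value of −6.44 on the log2 scale (SE 1.28, adjusted P = 0.0161, exact permutation P = 0.0357, the smallest that 28 splits allow). The splits treat the 6 non-met libraries as separate although they come from 4 mouse pools, and with libraries of 1 pool summed the adjusted P was 0.19. All 6 non-met libraries lay below both controls, yet edgeR's quasi-likelihood test gave an adjusted P of 0.943 and limma-trend 0.494. Without non-met 5 or non-met 6 the adjusted P was 0.0548 and 0.0554, and over all alternatives it ran from 0.00251 to 0.943. The 14 listed inhibitors and pocket proteins, which hold cells out of the cycle, had 13 tested and 0 called in each comparison. Their median log2 fold changes were −1.47 in met against non-met, −1.62 in met against control and 0.13 in non-met against control. The other mitotic genes (25 of 26 tested) had medians of 1.06, 3.60 and 1.86, the other replication genes (18 of 21) 0.03, 2.79 and 2.34, and the other cyclins and kinases (12 of 13) 0.36, 0.45 and 2.10, with 0 called. The transcription factors of the cycle, the list that holds E2f6, had 13 of 14 tested and medians of −0.36, 1.44 and 2.74. Over all genes tested the medians were 0.07, −0.09 and −0.33.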

How the data were processed

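Libraries were made with the SMART-Seq v4 low-input kit, and the authors aligned paired reads to mm10 with Rsubread and counted reads per Entrez gene with featureCounts. The table they deposited holds raw counts, not normalised, and the handling of strand and of multi-mapping reads is not given in the sources used here. Gene names came from RefSeq for 25275 of 27179 rows and from GENCODE for 18. Unnamed, ribosomal RNA and predicted rows were left out (1.94% to 15.7% of counts), which kept 23520 rows, and CPM was computed from their counts. The 40 genes, the other lists and the tests were chosen with earlier results of these data known. The main test used filterByExpr and voomLmFit with sample weights, as the study's methods state, in edgeR 4.0.16 with limma 3.58.1 and R 4.3.3. P values were adjusted by Benjamini-Hochberg over 11950 genes, with a threshold of 0.05. TMM scaling and 1 model of 3 groups were chosen here, and the rows left out may not be the same as the study's. Single genes were also tested by exact two-sided permutation of mean log2 CPM (prior count 2). The scripts were tested on simulated data. Alternatives were edgeR's quasi-likelihood test, DESeq2 1.42.0, limma-trend, other scalings and filters, library sets and leaving out each library. Genes given with values by group were Mki67, Top2a, the highest per length in each role, the 3 largest rises and falls in each comparison, and the 5 with the largest share in 1 library, and further genes were named after their values were seen. Same-pool libraries come from the same mice, so mouse pool is the pairing, and replicate numbers in the labels do not mark it. Over all genes the correlation within pools was −0.04. Figures were drawn with matplotlib 3.10.9.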

Additional observations from a re-analysis of the deposited data

Results flagged for a closer look

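Of 47 sets of 6 non-met values checked (40 genes and 7 sums), 15 held a library whose distance from the next was large for the range of the 6 (Dixon's test at 95%, which chance passes in about 1 of 20 sets of normally distributed values). Among the 40 genes it was 14 (35%), beside 34.2% of the 11950 genes tested. Non-met 2 stood apart in 9 genes: Mki67 (483 CPM), Pcna (134), Ccnb1 (102), Ccne2 (69.9), Cdt1 (64.3), Bub1b (60.1), Kif20a (27.9), Bub1 (27.2) and Ccne1 (2.96). Non-met 6 stood apart in Cdc20 (202 CPM), Tk1 (109), Rrm2 (78.5) and Cdk1 (48.8), and in the sum of the mitotic kinases, checkpoint and anaphase-promoting complex genes (274 CPM). Non-met 5 stood apart in Aurka (76.0 CPM). In all 15 the library that stood apart was the highest, and 13 of the 14 genes were highest in a library of burdened pool 2. The like shares were not counted over the genes tested, so nothing is read from these counts. The cause was not tested.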

How the results depend on the processing

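With 28 alternatives in met against non-met and 26 in each comparison with control, 0 cell cycle genes were called under any, also when 1 library was left out, and the smallest adjusted P was 0.0872 (Nusap1, DESeq2), 0.0602 (Mcm5, no low-count filter) and 0.0541 (Plk1, DESeq2). With mouse pool as a replicate block the count was 0 as a random term in all 3 comparisons and 0 as a fixed term in met against non-met (29 genes tested), and the pairing changed no call of a cell cycle gene. Leaving out each library gave medians of −0.55 (without met 2) to 0.20 (without non-met 2) in met against non-met, −0.86 to 2.70 in met against control and −1.23 to 3.69 in non-met against control. Over all alternatives the median in met against non-met ran wider. It was −0.72 with libraries of 1 pool and group summed, and 0.45 with only libraries of at least 10 keratin CPM (21 genes tested). With RLE it was −0.31. Leaving out control 1 and non-met 2 together, chosen after seeing the data, gave 2.75 in met against control. Without sample weights the medians against control were −0.024 and 0.43, and with the quasi-likelihood test, DESeq2 and limma-trend they were 0.42, 0.40 and 0.42 in met against control and 0.80, 0.93 and 0.011 in non-met against control. With the 2 groups alone the median in met against control was 0.86 (27 genes tested). RLE in place of TMM moved the median of all genes in met against non-met from 0.07 to −0.09.

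Mki67 in met against non-met turned to −0.33 without weights, −0.18 with RLE, −0.17 with no filter, −0.0057 at a mean of at least 5 CPM, −0.076 with the random block and −0.031 with the 2 groups alone, and ranged from −0.56 to 1.06 with 1 library left out. In met against control it was −0.18 without weights and −0.070 with the 2 groups alone, and ranged from −0.58 to 1.79. In non-met against control it was −0.27 with a term for the epithelial list and ranged from −0.65 to 1.71. Top2a in met against non-met turned to −0.10 with DESeq2 and −0.36 with the fixed block, and ranged from −0.062 to 1.89, from −0.83 to 8.97 in met against control, and from −2.14 to 7.66 in non-met against control. Pcna and Mcm2 in non-met against control ranged from −0.97 to 8.30 and from −1.01 to 8.07. E2f6 kept its direction in 26 alternatives and was not called with its pools summed (0.19), with a term for the epithelial list (0.0665) or for keratins (0.192). Over all genes in met against non-met, 51 calls became 46 with the 2 groups alone and 27 when the fixed block was added to that fit, 24 with pools summed, 9 with the keratin term, and 16 to 87 with 1 library left out. The causes were not tested.

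Genes detected moved from 29 to 14 in non-met 3 and from 32 to 21 in met 2 at 10 reads, to 11 and 20 at the shallowest depth, and from 14 to 33 in non-met 4 and to 22 in non-met 5 at 1 read. Depth limits non-met 4 most, where a count of 0 allows up to 4.76 CPM.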
